A study of Mus musculus with 33 samples.

Results

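The mitochondrial respiratory chain passes electrons from NADH and succinate to oxygen through complexes I to IV, and complexes I, III and IV pump protons as they do so. Most of its subunits are encoded in the nucleus, made in the cytosol and imported, and they are assembled with a small set of core subunits encoded by mitochondrial DNA. Complex II, succinate dehydrogenase, is encoded wholly in the nucleus and is also an enzyme of the tricarboxylic acid cycle. Pluripotent stem cells are known for a strong reliance on glycolysis, and the balance between glycolysis and respiration is known to change as they differentiate. The mRNA levels of 52 nuclear-encoded subunits were followed here in mouse embryonic stem cells (mESCs) and in the embryoid bodies (EBs) derived from them.

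The 52 genes were chosen by name as subunits of complex I (34 genes), complex II (4), complex III (7) and complex IV (7), and all 52 were found among the 37991 gene identifiers counted in every library. The choice was not made on measured values, but earlier results of these data were known when it was made. Ndufa4 is kept with complex I as its name has it, although its protein is now placed in complex IV. The data were 33 poly(A) RNA-seq libraries in 12 groups from the E14TG2a mESC line, in which CRISPR/Cas9 was used to delete part of Neil1, Neil2 (DNA glycosylases that remove oxidized bases) or Apex1 (the endonuclease that cuts at abasic sites). Every line had been transfected with the Cas9 plasmid together with a puromycin selection plasmid; the Control clones, labelled wild-type, received the empty Cas9 plasmid. Each genotype was sampled as undifferentiated mESCs grown on gelatin with LIF, as EBs harvested on day 8, and as EBs_RA, harvested on day 8 after 5 µM retinoic acid (RA) from day 4. Control, Neil1 knockout and Neil2 knockout each had 3 independent clones per stage, and the same clones were carried through all 3 stages. The Apex1 knockout was 1 clone sequenced in technical duplicates, so no test was possible for it and its differences cannot be told apart from those of that clone.

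The libraries held 21523742 to 48350904 counted reads (median 26720028), of which the 52 subunits took 0.514 to 0.801%. Values are CPM, a gene's counts relative to library size on the usual scale, after TMM scaling, which sets library sizes by the bulk of genes. The 13 subunits encoded by mitochondrial DNA were listed at 0 in all 33 libraries, so only the nuclear part of each complex could be followed. Summed CPM of 6 pluripotency markers was 3404 to 3797 in Control mESCs, 1364 to 1434 in Control EBs and 78.0 to 120.6 in Control EBs_RA, and that of 5 neural progenitor markers was 22.2 to 25.8, 34.6 to 49.3 and 229 to 336. From Control mESCs to EBs, 3 of 4 neural markers tested were higher and 1 lower, with a lowest log2 fold change of -3.12. All 5 visceral endoderm markers were higher in that step, with a median of 5.95. The deletions span only part of each gene, so whole-gene counts do not check the labels: Neil1 stood at 1.42 to 31.6 CPM in the libraries labelled Neil1 against 5.89 to 9.83 in Control, Neil2 at 4.87 to 18.3 in those labelled Neil2 against 3.32 to 15.1, and Apex1 at 56.0 to 85.6 in those labelled Apex1 against 7.69 to 17.9.

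The 52 genes lie on 17 chromosomes and none on X. Their coding transcripts are short, with a median of 977 bases (476 to 4371) against 2303 bases over 22754 coding genes, and their GC content is close to that of all coding genes (median 50.6% against 49.4%). Processed copies of such genes are common in the mouse genome: 24 of the 52 shared at least 1 exact 51-base stretch, the read length, with another place in NCBIM37, and 28 shared none. The share of such stretches was 62.2% for Cox5b and 60.6% for Uqcrb, then 49.5% for Ndufs5, 42.5% for Ndufs3, 41.3% for Ndufb4, 26.2% for Ndufa12 and 20.4% for Cox8a, and reads from these stretches could not be placed uniquely, so the values of these genes are uncertain to that extent. Exons of 12 of the 52 overlapped another annotated gene. On the other strand the overlap took over 20% of the exon sequence of Ndufb6 (39.0%), Cox5a (38.7%) and Ndufa13 (30.2%). The library kit does not mark strand, so reads of the overlapping genes cannot be told apart.

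Transcription of many of these genes is known to be driven by nuclear respiratory factor 1 (NRF1), GABPA (an ETS factor) and YY1. RefSeq held promoter windows for 42 of the 52 genes (44 windows of 250 bases before the start, build GRCm38.p6, read on both strands). The NRF1 motif (GCGCA, any base, then GCGC) was found in 10 of 44 windows (22.7%) and in 3.74% of all 32851 windows, the ETS motif CCGGAAG in 6 (13.6%, against 6.91%) and the YY1 motif AAGATGGC in 0 (against 1.56%). No pair of these 3 motifs overlaps in the windows shown. The promoters below are examples, from Sdha and Sdhb, the catalytic pair of complex II, and Cox6a1 and Cox5a of complex IV. Capitals mark the motif matches, all of them NRF1 except the ETS match of Cox6a1 nearest its 3′ end.
Sdha, chr13:74350241-74350490, minus strand: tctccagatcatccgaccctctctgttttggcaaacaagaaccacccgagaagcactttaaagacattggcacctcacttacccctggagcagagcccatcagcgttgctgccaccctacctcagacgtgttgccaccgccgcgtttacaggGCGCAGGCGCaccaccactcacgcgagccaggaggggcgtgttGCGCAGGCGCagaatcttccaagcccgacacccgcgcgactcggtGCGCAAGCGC
Sdhb, chr4:140961021-140961270, plus strand: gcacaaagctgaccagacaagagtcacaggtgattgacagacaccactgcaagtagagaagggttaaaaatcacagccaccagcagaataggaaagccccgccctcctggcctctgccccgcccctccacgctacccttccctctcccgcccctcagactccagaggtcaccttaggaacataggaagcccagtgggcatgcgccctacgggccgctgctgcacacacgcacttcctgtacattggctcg
Cox6a1, chr5:115348959-115349208, minus strand: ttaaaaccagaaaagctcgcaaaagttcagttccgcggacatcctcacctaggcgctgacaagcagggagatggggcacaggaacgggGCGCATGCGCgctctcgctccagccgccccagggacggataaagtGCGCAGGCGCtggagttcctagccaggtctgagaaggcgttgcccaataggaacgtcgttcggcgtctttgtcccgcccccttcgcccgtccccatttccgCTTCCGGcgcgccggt
Cox5a, chr9:57520982-57521231, plus strand: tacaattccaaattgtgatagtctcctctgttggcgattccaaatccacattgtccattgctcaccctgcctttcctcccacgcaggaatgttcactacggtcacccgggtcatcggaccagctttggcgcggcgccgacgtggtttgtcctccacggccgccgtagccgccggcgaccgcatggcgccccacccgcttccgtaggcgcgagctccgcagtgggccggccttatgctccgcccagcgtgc
Sdha held 3 NRF1 matches and Cox6a1 held 2 with 1 ETS match, while Sdhb and Cox5a held none of the 3 motifs in this window. Of the windows not shown, those of Cox5b, Cox7a2 and Cox8a also held none, and that of Sdhd held 1 NRF1 and 1 ETS match. Motif content thus differed between subunits of the same complex.

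Subunits of 1 complex, which are built into it in fixed ratios, were not at equal mRNA levels. Per kilobase of exon sequence, the level in Control mESCs was highest for Cox4i1, a regulatory subunit that is among the earliest to join complex IV, at 766.9 ± 101.6 CPM per kb (SD, n = 3). It was followed by Cox8a at 548 ± 172, Ndufa4 at 506 ± 42.7, Cox6a1 at 372 ± 94.9 and Cox5b at 310 ± 68.3. The lowest were the complex I accessory subunits Ndufb7 (16.0 ± 2.13), Ndufs5 (10.3 ± 0.286), Ndufab1, the mitochondrial acyl carrier protein (10.0 ± 1.23), and Ndufb2 (3.79 ± 0.608). The highest level was thus 202.5 times the lowest. In this order 44 of the 51 neighbouring pairs had overlapping clone values and 7 did not, so most ranks beyond the extremes are not resolved. The length used was that of all annotated exons merged. For Ndufb7 it was 4522 bases, against 623 in its longest coding transcript, for Ndufab1 6883 against 3479 and for Ndufb2 5628 against 4371. In CPM without length Ndufb7 was at 72.3, Ndufab1 at 69.0, Ndufb2 at 21.3 and Ndufs5 at 8.87. The ranks of Ndufb7 and Ndufab1 thus depend on how length is taken.

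The median level per kilobase in Control mESCs was 54.4 for complex II, 64.6 for complex I, 153.9 for complex III and 309.9 for complex IV. In Control EBs_RA the medians were 54.3, 54.6, 118.4 and 243.0 in the same order. As a group these were abundant mRNAs: by CPM per kb the median member stood at the 96.3rd percentile of 23110 genes with a count in Control mESCs, Ndufb2 at 63.4 and Cox4i1 at 99.7. Cox4i1 remained the highest and Ndufb2 the lowest in Control EBs (608 and 3.92) and in Control EBs_RA (513 and 3.59).

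**Figure D1:**
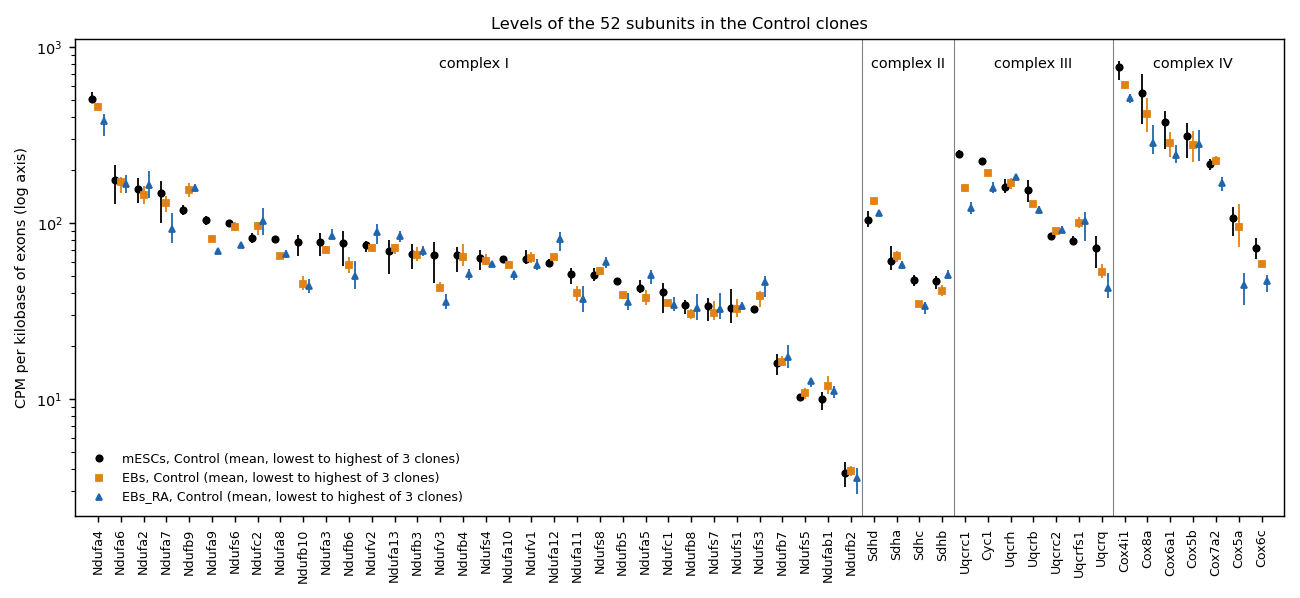
Level of each of the 52 subunits in the Control clones, in CPM per kilobase of all annotated exons merged, on a log axis. Points are means of 3 clones and lines run from the lowest to the highest clone, for mESCs (circles), EBs (squares) and EBs_RA (triangles); complex IV holds most of the highest levels and 4 complex I subunits lie well below the rest.

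Clones of 1 group differed more for some subunits than for others. The SD of log2 values within groups, pooled over the 9 groups of 3 clones, was lowest for Cyc1, the cytochrome c1 of complex III (0.087), Ndufa10 (0.095) and Uqcrc2 (0.095). It was highest for Cox5a (0.42), Cox8a (0.30) and Cox5b (0.28), all in complex IV. The median member had an SD of 0.17, against 0.20 over the 9016 genes at or above the level of the lowest member. Within complex IV the spread was uneven, since Cox6c (0.16) and Cox4i1 (0.17) were slightly below the median member.

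Differentiation without RA was accompanied by few changes. These are bulk samples, in which fewer cells of a type and less RNA per cell cannot be told apart. A gene was called at a Benjamini-Hochberg adjusted p below 0.1 in edgeR over all genes and a log2 fold change beyond 0.5. The same clones were sampled at each stage, but the tests reported here did not pair them unless stated. In Control clones, 38.7% of 15799 tested genes were called between EBs and mESCs, and 20.2% of the tested genes were called lower in EBs. Shares of higher and lower genes are given out of all tested genes throughout. Of the 52 subunits 3 fell and 0 rose, with a median log2 fold change of -0.15 against -0.03 for all genes. Ndufb10, an accessory subunit of the complex I membrane arm, was at 103.7, 102.8 and 79.4 CPM in the 3 mESC clones and at 50.4, 53.5 and 61.2 in the EBs. Uqcrc1, a core protein of complex III, was at 410, 430 and 389 CPM in mESCs and at 260, 274 and 248 in EBs. Neither gene's clones overlapped between the stages. Ndufb10 fell by 0.83 (SE 0.14, adjusted p = 0.00177), Uqcrc1 by 0.69 (SE 0.11, adjusted p = 0.0012) and Ndufv3, an accessory subunit of the NADH-oxidizing module, by 0.66 (SE 0.19, adjusted p = 0.0221). The 6 core subunits of complex I encoded in the nucleus held none of the calls (median -0.03). Without the mESC and EB libraries of the third Control clone, whose mESC members' median lay 0.15 below the Control mean on the log2 scale while the other clones lay 0.05 and 0.12 above it, 9 members were called lower.

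EBs_RA differed more from mESCs. In Control clones 59.2% of 16232 genes were called and 29.4% were lower; 15 of the 52 subunits fell and 0 rose, a share close to that background. The calls were uneven among complexes: 5 of 7 in complex IV (median log2 fold change -0.64), 3 of 7 in complex III (median -0.41), 1 of 4 in complex II (median -0.01) and 6 of 34 in complex I (median -0.09). The largest fall was that of Cox5a, a subunit on the matrix side of complex IV. Its values were 76.99, 85.5 and 58.5 CPM in mESCs, 57.5, 88.7 and 50.2 in EBs and 32.8, 36.1 and 23.7 in EBs_RA. All 3 EBs_RA clones were below every clone of the other stages, whereas mESCs and EBs overlapped. The fold change from mESCs to EBs_RA was -1.28 (SE 0.20, adjusted p = 3.7e-04).

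Uqcrc1 was lower still in EBs_RA than in EBs, at 200, 219 and 186 CPM, and its change from mESCs was -1.05 (SE 0.13, adjusted p = 1.1e-04). Cox8a, a small transmembrane subunit of complex IV, was at 314, 384 and 198 CPM in mESCs and 135, 195 and 137 in EBs_RA. The third mESC clone was only just above the highest EBs_RA clone, and the change was -0.97 (SE 0.25, adjusted p = 0.00664). Ndufv3 (-0.92) and Ndufb10 (-0.86) fell again, as did Cox4i1 (-0.61), Cox6c (-0.64), Cox6a1 (-0.64), Cyc1 (-0.54) and Sdhc, a membrane anchor of complex II (-0.53). In contrast, the core complex I subunits held 0 calls of 6 with a median of 0.10. The remaining complex IV subunits, Cox5b and Cox7a2, were not called. With library totals in place of TMM the median of all genes moved up by 0.15, and 9 members were then called lower and 3 higher (Ndufa12, Ndufb9 and Ndufs3).

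The step from EBs to EBs_RA, at the same day of culture, isolates the addition of RA. In Control clones it gave calls for 44.1% of 15919 genes, 20.7% lower, but for only 2 of the 52 subunits: Cox5a at -1.05 (SE 0.24, adjusted p = 0.00647) and Cox8a at -0.51 (SE 0.20, adjusted p = 0.0608). With library totals the median of all genes moved by 0.12, Cox8a was no longer called, and Ndufa5 and Ndufa12 were called higher. Of the 11 members followed in every comparison, chosen for their roles (Ndufs1, Ndufv1 and Ndufs8 of the complex I electron path, Sdha and Sdhb, Uqcrc1, Uqcrfs1, the Rieske iron-sulfur protein, and Cyc1, and Cox4i1, Cox5a and Ndufa4), only Cox5a was called, and the other 10 lay between -0.34 (Uqcrc1) and 0.34 (Sdhb). In the EBs against mESCs comparison the 10 not called lay between -0.37 (Cox4i1) and 0.29 (Uqcrfs1).

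**Figure D2:**
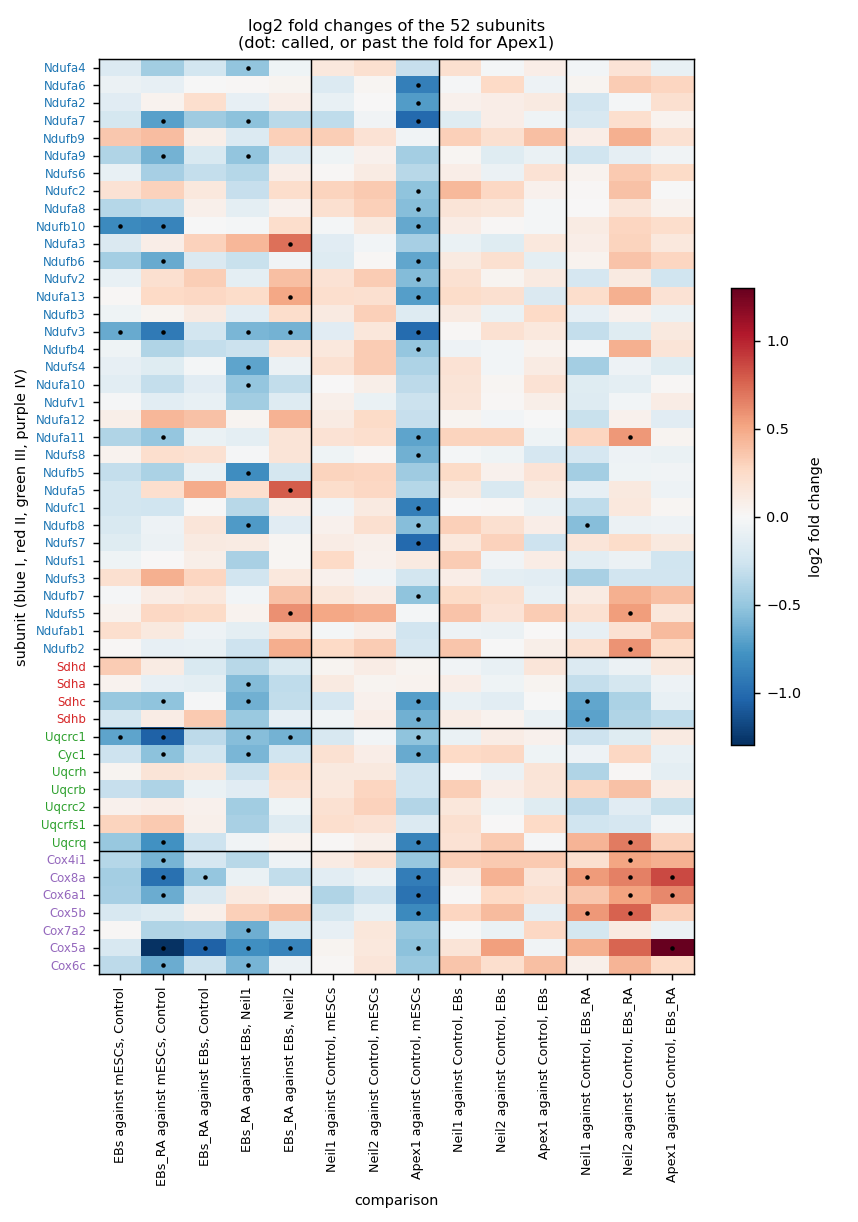
log2 fold change (colour) of each of the 52 subunits (1 line each, grouped by complex) in 14 comparisons, with dots on called changes, or on changes past 0.5 for Apex1, which had no test. The column of EBs_RA against mESCs in Control holds most of its dots in complexes III and IV, and the Apex1 column in mESCs holds 26 dots in all 4 complexes.

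The same steps within the knockouts gave other counts. In Neil1 knockout clones, 27.9% of 15371 genes were called between EBs and mESCs (14.7% lower) and 2 members fell, Ndufb10 (-0.69) and Uqcrc1 (-0.55). Between EBs_RA and EBs, 53.4% of 15688 genes were called (25.2% lower) and 15 members fell with 0 rising (median -0.29 against 0.03 for all genes). The share of members that fell was close to that of all genes. These 15 were Ndufb5, Cox5a, Ndufb8, Ndufs4, Cox7a2, Sdhc, Cox6c, Cyc1, Ndufv3, Sdha, Uqcrc1, Ndufa7, Ndufa4, Ndufa9 and Ndufa10. Ndufb5, a membrane-arm subunit of complex I, was at 85.2, 90.3 and 106.9 CPM in Neil1 EBs and at 60.1, 54.2 and 48.3 in Neil1 EBs_RA, with no overlap. Its fold change was -0.81 (SE 0.13, adjusted p = 0.0013). This count rests on the scaling: with library totals, which moved the median of all genes by 0.28, 5 members were called, 2 lower and 3 higher. Without the first Neil1 clone the 2 calls between EBs and mESCs became 0.

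In Neil2 knockout clones, 27.4% of 15554 genes were called between EBs and mESCs (13.1% lower), and 8 members fell: Ndufb10 (-0.93), Ndufa5 (-0.71), Sdhc (-0.68), Ndufa9 (-0.61), Ndufv3 (-0.60), Uqcrc1 (-0.56), Ndufa8 (-0.53) and Ndufb5 (-0.52). This share of members was also close to that of all genes. Between EBs_RA and EBs, 42.4% of 15876 genes were called, 21.4% higher and 21% lower. Here 4 complex I accessory subunits rose, Ndufa5 (0.79), Ndufa3 (0.72), Ndufs5 (0.60) and Ndufa13 (0.50), and 3 members fell, Cox5a (-0.85), Ndufv3 (-0.61) and Uqcrc1 (-0.61). Ndufa3 was at 55.7, 54.0 and 53.0 CPM in Neil2 EBs and at 90.3, 82.9 and 93.8 in Neil2 EBs_RA, and its clones did not overlap. The direction of this comparison also rests on scaling, since library totals moved the median of all genes by 0.24 and then gave 10 members higher and 0 lower. Without the third Neil2 clone, 1 member was called in each of these comparisons.

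Comparisons of genotypes at 1 stage asked whether loss of a glycosylase altered respiratory chain mRNA. All of them used the same Control libraries at a stage, so the values of Neil1, Neil2 and Apex1 against Control are not independent of one another. In mESCs, 1.82% of 15569 genes were called for Neil1 and 1.83% of 15615 for Neil2, and edgeR called 0 members in either. At an unadjusted p below 0.05 there were 2 members for Neil1 and 9 for Neil2, and DESeq2 called 1 and 0. The share of all genes at that unadjusted p was not taken, so these counts have no background to be read against. The member with the smallest p in both knockouts was Ndufs5, an accessory subunit of complex I. It stood at 8.88, 9.11 and 8.62 CPM in Control, at 14.4, 11.6 and 12.1 in Neil1 and at 13.6, 12.0 and 12.2 in Neil2. No knockout clone overlapped the Control clones, yet the differences of 0.50 (SE 0.17, adjusted p = 0.223) and 0.48 (SE 0.15, adjusted p = 0.203) missed the threshold. DESeq2 called it for Neil1. The lowest difference in both was that of Cox6a1, at -0.39 and -0.27. The 11 members followed throughout lay between -0.21 (Uqcrc1) and 0.26 (Ndufs1) for Neil1 and between -0.09 (Ndufv1) and 0.21 (Ndufa4) for Neil2.

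In EBs, 23.5% of 15479 genes were called for Neil1 and 16.3% of 15575 for Neil2, and again 0 members were called by edgeR or DESeq2, with 16 and 5 members at an unadjusted p below 0.05. The share of all genes at that unadjusted p was not taken, so the 16 and 5 have no background here either. Several Neil1 differences passed the adjusted p but not the fold limit. Cox6c, a complex IV subunit, was at 208, 207 and 209 CPM in Control EBs and 242, 282 and 284 in Neil1 EBs, a difference of 0.36 (SE 0.08, adjusted p = 0.00709). All Neil1 clones were above all Control clones. The same held for Ndufc2, a membrane-arm subunit of complex I, at 75.4, 76.5 and 64.6 CPM in Control and 84.6, 94.5 and 111.4 in Neil1, with the highest difference of 0.42 (SE 0.11, adjusted p = 0.0169). The lowest was that of Ndufa7 at -0.16. For Neil2 the highest difference was that of Cox5a at 0.54, with clones at 68.3, 93.9 and 122.1 CPM against 57.5, 88.7 and 50.2, which overlapped, and the lowest that of Ndufa5 at -0.20. The followed members lay between -0.09 (Uqcrc1) and 0.34 (Ndufs1) for Neil1 and between -0.05 (Ndufs8) and 0.54 (Cox5a) for Neil2.

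In EBs_RA members were called for both knockouts, lower ones for Neil1 in complexes I and II, and higher ones in complex IV for both. For Neil1, 41.1% of 16019 genes were called (21.2% higher, 19.9% lower), and among the 52 members 2 were higher and 3 lower, a smaller share than the background. The 2 higher were Cox5b and Cox8a of complex IV, and the 3 lower were Sdhb and Sdhc of complex II and Ndufb8 of complex I. For Neil2, 34.9% of 16055 genes were called (18.3% higher), and 8 members were higher and 0 lower: Cox5b, Cox8a, Cox6a1 and Cox4i1 of complex IV, Uqcrq of complex III, and Ndufb2, Ndufa11 and Ndufs5 of complex I. Of the 4 complex II genes 2 were called for Neil1 and 0 for Neil2, and of the 7 complex IV genes 2 and 4. The median log2 difference of complex II was -0.49 for Neil1 and -0.31 for Neil2, and that of complex IV was 0.35 and 0.52. Over all genes it was 0.001 and 0.005. Of the followed members, Sdhb was called for Neil1 with the other 10 between -0.31 (Sdha) and 0.46 (Cox5a), and Cox4i1 for Neil2 with the other 10 between -0.39 (Sdhb) and 0.75 (Cox5a).

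Complex II is a 4-subunit enzyme. Sdhb, its iron-sulfur subunit (NCBIM37 chr4:140517118-140535108, plus strand), was at 112.6, 121.2 and 107.2 CPM in Control EBs_RA, at 77.3, 72.7 and 64.4 in Neil1 and at 93.5, 82.7 and 84.4 in Neil2. Every knockout clone was below every Control clone. The difference was -0.69 for Neil1 (SE 0.13, adjusted p = 0.00503) and -0.39 for Neil2 (SE 0.11, adjusted p = 0.0321), the latter inside the fold limit. The Apex1 duplicates were at 97.7 and 82.6.

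Sdhc (chr1:173057296-173080734, minus strand) was at 114.2, 115.5 and 98.7 CPM in Control, at 71.9, 74.2 and 63.5 in Neil1 and at 72.1, 82.2 and 92.7 in Neil2, again without overlap. Its difference was -0.67 for Neil1 (SE 0.13, adjusted p = 0.00641) and -0.41 for Neil2 (SE 0.13, adjusted p = 0.0377). Sdha, the flavoprotein subunit (chr13:74459702-74487728, minus strand), was at 237, 224 and 214 CPM in Control, 196, 197 and 159 in Neil1 and 167, 206 and 204 in Neil2, which did not overlap but gave adjusted p = 0.102 for Neil1 (-0.31) and 0.175 for Neil2 (-0.22). Sdhd, the other membrane anchor, overlapped between groups, with differences of -0.18 and -0.08. The median over the 4 genes, per library against the Control mean, was -0.37, -0.37 and -0.64 in the Neil1 clones, -0.35, -0.33 and -0.27 in the Neil2 clones and 0.03, 0.04 and -0.08 in the Control clones.

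The complex IV subunits Cox5b, Cox8a and Cox5a varied more between clones. Cox5b (chr1:36748332-36750230, plus strand) was at 162, 190 and 126 CPM in Control EBs_RA, at 175, 270 and 273 in Neil1 and at 208, 257 and 351 in Neil2. The first Neil1 clone lay within the Control range and the Neil2 clones were all above it. The differences were 0.56 (SE 0.22, adjusted p = 0.0766) and 0.76 (SE 0.21, adjusted p = 0.0272). Of the 51-base stretches of Cox5b, 62.2% occur elsewhere in the genome. Reads listed as not unique made up 11.4 to 13.4% in Control EBs_RA, 13.3 to 16.5% in Neil1 and 14.8 to 19.0% in Neil2. The part of this in the differences was not tested. Cox8a (chr19:7289648-7292106, minus strand) was at 135, 195 and 137 CPM in Control, 173, 255 and 266 in Neil1 and 241, 212 and 286 in Neil2, with differences of 0.55 (SE 0.22, adjusted p = 0.0771) and 0.66 (SE 0.18, adjusted p = 0.025). For Cox8a, too, 1 Neil1 clone lay within the Control range and the Neil2 clones were all above it. Cox5a was at 27.2, 48.2 and 81.7 CPM in Neil2, which overlapped Control, and was not called for either genotype, at 0.46 and 0.75. Uqcrq, a small subunit of complex III, was at 68.6, 94.95 and 71.8 CPM in Control and 118.5, 110.5 and 146.6 in Neil2, without overlap, and the difference was 0.67 (SE 0.17, adjusted p = 0.0167). Uqcrc1, of the same complex, was at -0.16 in Neil2 (adjusted p = 0.336) and was not called.

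**Figure D3:**
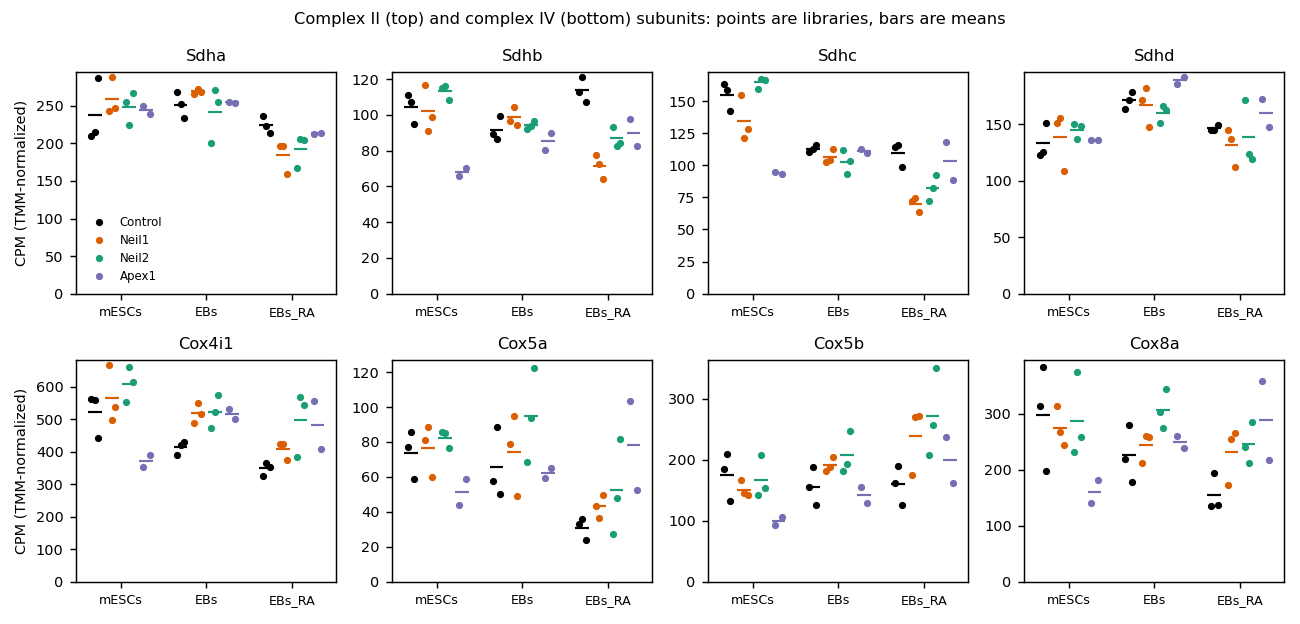
CPM of the 4 complex II subunits (top) and of 4 complex IV subunits (bottom) in each library, by stage and genotype, with a bar at each group's mean and axes from 0. In EBs_RA the Neil1 and Neil2 points of Sdhb and Sdhc lie below the Control points, and most Cox5b and Cox8a points lie above them.

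These calls differed in how far single libraries carried them. Sdhb and Sdhc were called for Neil1 without any 1 library of the comparison. The 5 calls for Neil1 became 3 without the first Control clone, 2 without the third Neil1 clone and 9 without the first Neil1 clone. The 8 calls for Neil2 became 3 without the first Control clone, 5 without the third Control clone and 4 without the third Neil2 clone. When each library's trend of counts with transcript length and GC content was removed, a setting chosen after the data had been seen, Neil1 kept Sdhb, Sdhc and Ndufb8 but lost Cox5b and Cox8a and gained Cox5a. Neil2 then had 3 calls, Ndufb2 and Uqcrq higher and Sdhb lower, with complex II at a median of -0.30 and complex IV at 0.28.

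The EBs_RA of the genotypes also differed in their markers. The 6 pluripotency markers summed to 78.0 to 120.6 CPM in Control, 269.8 to 365.2 in Neil1 and 188.4 to 535.3 in Neil2, and the 5 neural progenitor markers to 229 to 336, 42.0 to 91.5 and 97.7 to 153. The 5 visceral endoderm markers summed to 32.4 to 236, 220 to 414 and 57.0 to 273. Cardiomyocyte markers, of a cell type rich in mitochondria, were low, and their sums in both knockouts lay within the Control range. The 7 genes summed to 9.495 to 16.2 CPM in Control, 10.4 to 11.9 in Neil1 and 13.1 to 16.0 in Neil2. Of 6 tested, 1 was higher and 1 lower for Neil1 (median 0.69) and 5 were higher and 1 lower for Neil2 (median 0.98), with Myl7, an atrial myosin light chain, at 1.43 and 1.78 and Actc1, cardiac actin, at -4.01 and -2.41. Erythroid markers summed to 0.296 to 0.722 over 5 genes, with Hbb-bh1 at 0 in all 9 libraries. The part of these cell types in the subunit differences was not tested.

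**Figure D4:**
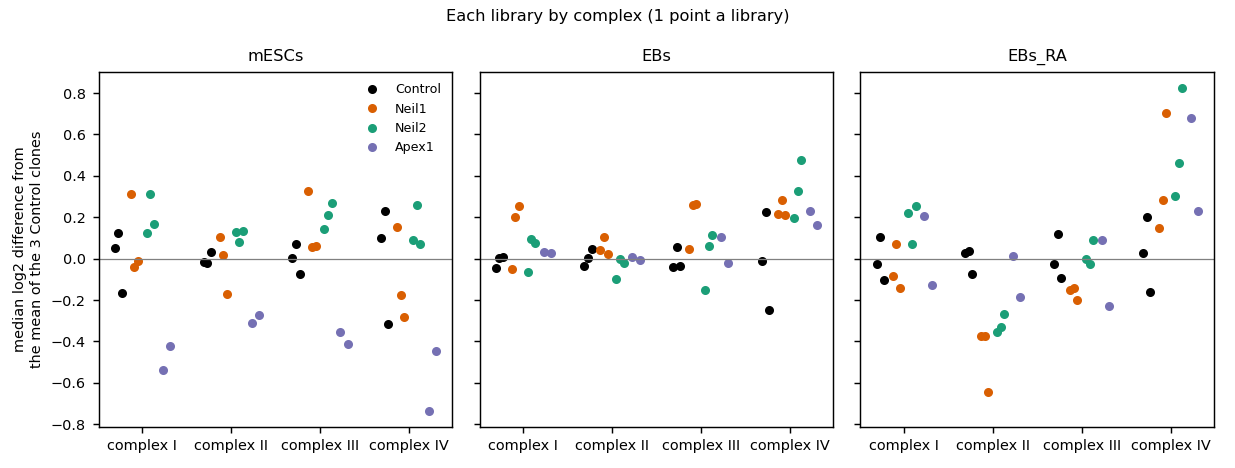
Median log2 difference of each complex's subunits from the mean of the 3 Control clones of the same stage, 1 point per library, for mESCs, EBs and EBs_RA. In EBs_RA the Neil1 and Neil2 points reach from -0.64 to -0.27 for complex II and from 0.15 to 0.82 for complex IV, while in mESCs the Apex1 points are the lowest of complexes I to IV.

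A direct comparison of Neil2 with Neil1, added after the values above had been seen, gave 0% of genes called at any stage (15384, 15294 and 15884 tested) and 0 members by edgeR or DESeq2. At an unadjusted p below 0.05 there were 0 members in mESCs, 1 in EBs and 10 in EBs_RA, without the share of all genes at that p, which was not taken. In EBs_RA 51 of 52 members had a positive difference, with a median of 0.21 (complex I 0.25, complex II 0.14, complex III 0.16, complex IV 0.26) against -0.005 for all genes. Transcript length moved with this difference: its median was 0.18 over 457 genes under 1000 bases, 0.05 over 1701 genes of 1000 to 2000 bases and -0.07 over 6470 longer genes, beside 0.23, 0.19 and 0.23 for the 26, 17 and 8 members in these classes. The part of length in it was not tested. The differences for Sdhb (0.27, SE 0.13, adjusted p = 0.487) and Sdhc (0.22, SE 0.14, adjusted p = 0.542) did not reach the threshold.

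Whether a stage change itself differed between genotypes was tested as an interaction, called at an adjusted p below 0.1 alone. From mESCs to EBs, 10.4% of genes were called for Neil1 (16341 tested) and 10.4% for Neil2 (16387 tested), with 0 members by edgeR in both. At an unadjusted p below 0.05 there were 1 and 4 members, again without the share of all genes, and DESeq2 called 0 and 1 (Uqcrc2). The values lay between -0.19 (Ndufb4) and 0.53 (Cox5b) for Neil1 and between -0.49 (Ndufa5) and 0.51 (Cox6a1) for Neil2. From EBs to EBs_RA, 32.2% of 16706 genes were called for Neil1 (14.8% lower), and 10 members had a lower change than in Control while 0 had a higher one. These 10 held 3 of the 4 subunits of complex II, Sdhb (-0.77), Sdhc (-0.56) and Sdha (-0.39). In complex I they were Ndufb8 (-0.85), Ndufb5 (-0.68), Ndufs4 (-0.61) and the core subunits Ndufs3 (-0.49) and Ndufs1 (-0.45), and in complex III Uqcrc2 (-0.47) and Uqcrh (-0.39). Complex IV held 0 of 7, with a median of 0.29.

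Sdhb is an example of such an interaction. In Control it was at 89.3, 86.4 and 99.1 CPM in EBs and at 112.6, 121.2 and 107.2 in EBs_RA. In Neil1 it was at 96.8, 104.6 and 94.3 in EBs and at 77.3, 72.7 and 64.4 in EBs_RA. It was thus higher with RA in every Control clone and lower with RA in every Neil1 clone, and the interaction was -0.77 (SE 0.15, adjusted p = 0.00329). The rise in Control was not shared by all members called in this test. Sdha was at 268.5, 252.4 and 234.1 CPM in Control EBs and at 236.8, 223.7 and 214.1 in Control EBs_RA, lower in each clone.

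Ndufb8, an accessory subunit of the complex I membrane arm (chr19:44623062-44629930, minus strand), was at 89.3, 101.6 and 96.2 CPM in Control EBs and 99.0, 124.4 and 89.1 in Control EBs_RA, which overlapped. In Neil1 it went from 109.1, 134.1 and 115.8 in EBs to 80.9, 76.6 and 59.3 in EBs_RA, without overlap, and the interaction was -0.85 (SE 0.21, adjusted p = 0.0123). The count of 10 became 4 with library totals, which moved the median of all genes by 0.11, and 4 to 15 without 1 library, with 5 without the first Control clone, 4 without the second, 5 without the second Neil1 clone and 6 without the third. Ndufb5, Ndufb8, Sdhb and Sdhc were called with library totals.

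For Neil2, 15.4% of 16757 genes were called from EBs to EBs_RA (7.42% higher, 7.98% lower) and 2 members, Sdhb lower (-0.45, SE 0.15, adjusted p = 0.0837) and Ndufa3 higher (0.43, SE 0.15, adjusted p = 0.0908). With the clone as a replicate block, which pairs each clone's EBs with its own EBs_RA, 5 members were called, these and Ndufb2, Ndufs6 and Ndufv3. With library totals, which moved the median of all genes by 0.12, Sdhb was no longer called and 3 members were higher.

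The 1 Apex1 clone differed from Control most in undifferentiated mESCs. Here a gene is counted when the summed duplicates were beyond 0.5 on the log2 scale, which held for 35.3% of 16695 genes (19.8% lower), and for 26 of the 52 members, all lower. The median member was at -0.50 and 3 of 52 were above 0. By complex, 17 of 34 in complex I, 2 of 4 in II, 3 of 7 in III and 4 of 7 in IV were lower past the fold. The lowest were Ndufs7, a core iron-sulfur subunit of complex I (-1.01), Ndufa7 (-1.01) and Ndufv3 (-1.004), followed by Cox6a1 (-0.96) and Cox8a (-0.90). Ndufs7 was at 61.9, 64.3 and 47.5 CPM in the Control clones and 24.1 and 34.0 in the Apex1 duplicates. Ndufs1, the largest subunit of complex I, was at 102.5, 110.8 and 159.5 in Control and 136.3 and 133.8 in Apex1, within the Control range.

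Transcript length and GC content moved with this result. Among genes above a log2 CPM of 4, the median difference of Apex1 from Control was -0.49 for 409 genes with transcripts under 1000 bases, -0.26 for 1507 genes of 1000 to 2000 bases and 0.09 for 6065 longer genes, against -0.52, -0.46 and -0.30 for the members in these classes (26, 17 and 8 genes). With GC over 55% it was -0.26 for 1908 genes and -0.69 for 15 members. The members under 1000 bases were thus close to other genes of their length, and the longer ones lay below theirs. After removal of each library's trends with length and GC, a setting chosen after the data had been seen, 7 members were past the fold (6 lower, 1 higher) and the median was -0.10. Of these 6 were among the 26: Ndufb8, Ndufc1, Ndufv2, Ndufv3, Sdhc and Uqcrq. The part of RNA or library quality in this result was not tested.

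**Figure D5:**
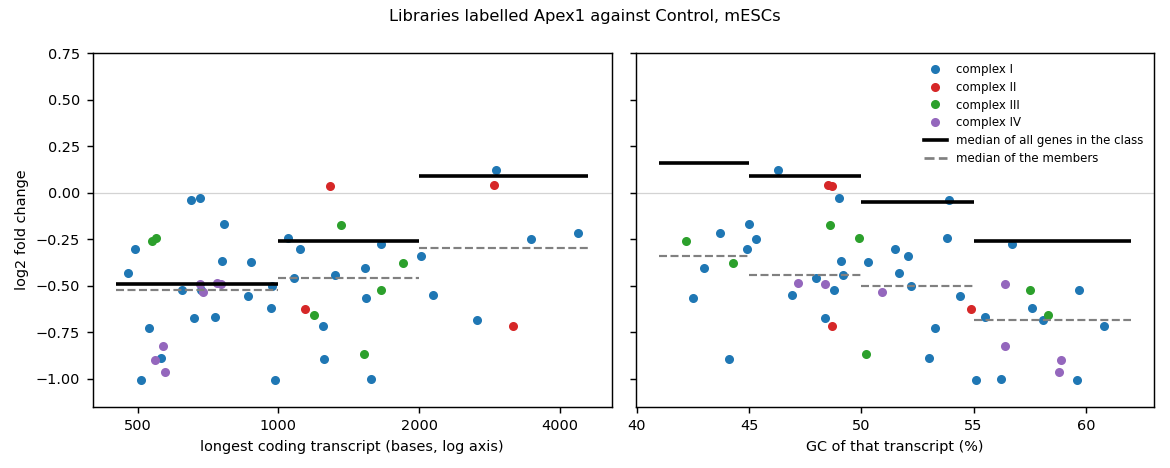
log2 difference between the libraries labelled Apex1 and Control in mESCs for each subunit, against the length (log axis) and GC content of its longest coding transcript, coloured by complex. Black bars are medians of all genes in each class and dashed bars those of the members; the black bars run from -0.49 under 1000 bases to 0.09 over 2000 bases.

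In EBs the Apex1 clone had 0 members past the fold, where 34.9% of 16848 genes were, and the members lay between -0.27 (Ndufs7) and 0.40 (Ndufb9). In EBs_RA 37.5% of 16792 genes were past the fold (19.9% higher) and 3 members were, all higher and in complex IV: Cox5a (1.299), Cox8a (0.86) and Cox6a1 (0.63). The technical duplicates differed here. Cox5a was at 103.4 and 52.6 CPM in them against 32.8, 36.1 and 23.7 in Control, and the median member lay at 0.21 in one duplicate and -0.10 in the other. Without the second Control clone 5 members were past the fold.

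Other genes of the pathway were taken from lists of named genes, and their counts stand beside the 29.4% of all tested genes that were lower in EBs_RA than in mESCs in Control. Of 8 further nuclear subunits, 3 fell and 0 rose from mESCs to EBs_RA in Control, the most Uqcr10 of complex III (-1.10, adjusted p = 1.0e-04). Of 15 ATP synthase genes 5 fell and 0 rose, the most Atp5g1, which encodes the c-ring subunit (-1.01, adjusted p = 8.9e-04). Of 11 tricarboxylic acid cycle genes 4 fell and 0 rose, the most Idh3a, a subunit of isocitrate dehydrogenase (-1.38, adjusted p = 1.3e-05). Of 32 tested assembly factors 9 fell and 4 rose, the largest change being that of Cox18, an insertase of complex IV assembly (-1.27, adjusted p = 2.0e-04). The shares of these 4 lists that fell were near that background. Of 16 glycolysis genes 15 fell and 0 rose (median -1.69), the most Pfkp, a phosphofructokinase (-4.69, adjusted p = 2.2e-07), beside 15 of the 52 respiratory subunits (median -0.15).

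Against Control in EBs_RA, where 41.1% of all tested genes were called for Neil1 (19.9% lower) and 34.9% for Neil2, the ATP synthase list held 0 calls of 15 for both. Glycolysis held 9 genes lower and 1 higher of 16 for Neil1 (median -0.65) and 5 lower and 1 higher for Neil2 (median -0.41), with Eno1, an enolase, at -1.71 (adjusted p = 4.8e-04) and -1.22 (adjusted p = 0.00277). The interaction from EBs to EBs_RA for Neil1, called for 32.2% of all tested genes (14.8% lower), gave 7 of 15 ATP synthase genes lower (median -0.44) and 8 of 16 glycolysis genes lower with 1 higher (median -0.53), beside 10 of 52 respiratory subunits (median -0.20).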

How the data were processed

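RNA was extracted from mESCs, EBs and EBs_RA and sequenced after poly(A) selection. The authors deposited raw read counts per gene for each library, made with TopHat2 2.0.9 (Bowtie2 2.1.0) on NCBIM37 and HTSeq 0.5.4. The strand setting is not given in the sources used here, and the kit does not mark strand. Counts were tested in edgeR 4.0.16 (R 4.3.3, limma 3.58.1) with filterByExpr, TMM factors and the robust quasi-likelihood test over all genes, each comparison fitted on its own groups. A call needed a Benjamini-Hochberg adjusted p below 0.1 and a log2 fold change beyond 0.5, as in the study, and interactions the adjusted p alone. The 2 Apex1 duplicates were summed and compared without a test. Alternatives were DESeq2 1.42.0, RLE factors, library totals, no filter, a stricter limit of 0.05, all 33 libraries in 1 fit, the replicate block, each clone left out, and offsets for transcript length and GC. Statistics were tested on simulated data, and replicate libraries differed by more than sampling noise (chi-square per degree of freedom 5.94 to 137 over 30 pairs). Precision is thus limited by the spread between clones as well as by the total counts of 21523742 to 48350904.

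Equal clone numbers mark the same clone across stages of 1 genotype by design, and deviations of the same clone correlated at r = -0.46 to 0.46 over genes. Between EBs and EBs_RA they were all positive, at 0.32 to 0.38 in Control, 0.15 to 0.31 in Neil1 and 0.42 to 0.46 in Neil2. The main fits of stage changes and interactions left this pairing out, and the replicate block was an alternative. Between genotypes no label ties equal numbers together. In EBs_RA, however, equal-numbered Control and Neil1 libraries correlated at r = 0.18 to 0.27 in all 3 pairs. This pairing comes from the data, not from the labels. The values reported in Results for that comparison were fitted without it, and the replicate block was an alternative. In the other 8 genotype comparisons at 1 stage at least 1 pair was not above 0.1. Members and gene lists were chosen with earlier results of these data known. In each comparison the text names 11 members chosen for their roles and up to 3 called members with the largest rise and 3 with the largest fall, or the highest and lowest where none was called. From each other list it names the called gene with the largest change. Further members were named after their values were seen. Ndufb1, Ndufb1-ps and Sox1 were not matched by name. Python 3.11.15 with pandas 2.3.3, scipy 1.17.1 and matplotlib 3.10.9 was used for summaries and plots.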

Additional observations from a re-analysis of the deposited data

Results flagged for a closer look

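The change from EBs to EBs_RA differed between Neil1 and Control by an interaction test in edgeR (adjusted p below 0.1 over all genes) for 10 of the 52 members, a smaller share than the 32.2% of all tested genes (14.8% lower, the direction of all 10). The interaction, on the log2 scale, was -0.773 for Sdhb, -0.562 for Sdhc and -0.386 for Sdha of complex II. In complex I it was -0.848 for Ndufb8, -0.678 for Ndufb5, -0.612 for Ndufs4, -0.490 for Ndufs3 and -0.453 for Ndufs1. In complex III it was -0.468 for Uqcrc2 and -0.385 for Uqcrh. For Neil2 against Control the same test passed for Sdhb at -0.446 and for Ndufa3 at 0.428, and for 15.4% of all tested genes. The Neil1 and Neil2 tests share the Control libraries.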

How the results depend on the processing

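Of 241 recomputed counts of members, 201 stayed within 1.5 times the reported count, 27 were lower, 12 higher and 1 ratio moved. Of 536 recomputed values of 45 named results, 441 kept direction and side of the threshold, 95 lost the threshold and 0 reversed. The causes of the changes below were not tested. At an adjusted p below 0.05, EBs_RA against EBs in Control gave 1 member, Neil1 in EBs_RA 3 and the Neil2 interaction from EBs to EBs_RA 0. With all 33 libraries in 1 fit, EBs_RA against EBs in Control gave 1 and Neil1 in mESCs 1. DESeq2 gave 1 for Neil1 in mESCs, 1 for the Neil2 interaction from mESCs to EBs and 16 for the Neil1 interaction from EBs to EBs_RA. Library totals gave 5 for EBs_RA against EBs in Neil1 and 4 for the Neil1 interaction from EBs to EBs_RA; they left Neil1 in EBs_RA at 2 higher and 2 lower and Neil2 at 12 higher, and Apex1 mESCs at 18 lower with the median of all genes moved by 0.11. The Neil2 interaction from EBs to EBs_RA gave 1 with RLE factors and 0 with no filter on low counts. Length and GC offsets, chosen after seeing the data, gave 3 for Neil2 in EBs_RA and 7 for Apex1 in mESCs. Without division by length, the highest level in Control mESCs was 58.7 times the lowest.

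With the clone as a replicate block, the Neil2 interaction from EBs to EBs_RA gave 5 members and that of Neil1 gave 14, including the 10 reported. Neil1 against Control in EBs_RA, whose equal numbers deviated together, gave the same 5 members with the block, with Sdhb at -0.69 and Sdhc at -0.67. In the other comparisons of genotypes, where only the number is shared (r = -0.44 to 0.55), the block changed 1 call, Cox4i1 for Neil2 in EBs_RA, which left 7.

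Without 1 clone at a time, EBs against mESCs gave 2 to 9 members in Control, 0 to 3 in Neil1 and 1 to 9 in Neil2. EBs_RA against mESCs in Control gave 10 to 18. EBs_RA against EBs gave 2 to 3 in Control, 10 to 16 in Neil1 and 1 to 7 in Neil2. Against Control, Neil1 gave 0 to 1 in mESCs and 2 to 9 in EBs_RA, and Neil2 gave 0 to 1 in EBs and 3 to 12 in EBs_RA. The single calls came without the third Control clone (Neil1 in mESCs) and without the second Control or the first Neil2 clone (Neil2 in EBs). Interactions gave 0 to 2 for Neil1 from mESCs to EBs, with 2 without the third Control clone, 4 to 15 for Neil1 from EBs to EBs_RA and 0 to 3 for Neil2, with 0 without the first or second Control or the second Neil2 or the third Neil2 clone and 1 without the third Control clone. Apex1 gave 20 to 31 in mESCs and 3 to 5 in EBs_RA.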

Other observations

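Some genes outside the 52 members changed more than any member in EBs_RA. Among 10 tissue-restricted isoforms of respiratory subunits, Neil2 had 5 higher and 0 lower of 9 tested and Neil1 4 higher and 2 lower of 8 tested. Over all tested genes 18.3% were higher for Neil2, and 21.2% were higher and 19.9% lower for Neil1. The CPM of these isoforms is not given here, so their folds cannot be set against their levels. Cyct, the testis form of cytochrome c, was higher by 3.17 for Neil2 (SE 0.40, edgeR adjusted p = 0.00114) and by 2.17 for Neil1 (SE 0.43, adjusted p = 0.00673). Cox6a2, the muscle form of Cox6a, was higher by 3.15 (SE 0.47, adjusted p = 0.00217) and 2.84 (SE 0.53, adjusted p = 0.00504). In Control these forms were lower in EBs_RA than in mESCs, with Cox8c at -4.50 (SE 0.65, adjusted p = 2.5e-04) and Cyct at -2.59 (SE 0.38, adjusted p = 2.7e-04). The Neil1 and Neil2 values share the Control libraries, and summed pluripotency markers were higher in the EBs_RA of both knockouts. The part of these cells was not tested.

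Ppargc1a, a coactivator of mitochondrial genes, was higher by 4.51 in EBs_RA than in mESCs in Control (SE 0.54, adjusted p = 7.9e-05), and its log2 difference of Neil1 from Control in EBs_RA was -1.52 (SE 0.37, adjusted p = 0.0148). Cox7b, an X-linked subunit of complex IV, differed in EBs_RA by 0.86 for Neil1 (SE 0.24, adjusted p = 0.023) and 1.21 for Neil2 (SE 0.21, adjusted p = 0.0039).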
